A study of Mus musculus with 20 samples.

Results

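Homologous recombination and the Fanconi anaemia pathway were followed through 34 genes of the mouse, chosen by name from the 49585 gene IDs of the count table and mapped to symbols. The genes cover kinases that signal DNA damage, enzymes that resect a broken end, the Brca1 and Brca2 mediators, the Xrcc2 and Xrcc3 group, annealing and motor genes, enzymes that take joined molecules apart, and the Fanconi proteins. All 34 matched a gene ID, and all 34 passed the filter on low counts in the tumours, where the lowest count of any member in a library was 30. The membership rule uses names and no measured values, though the genes were chosen with earlier results of these data known.

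Homologous recombination repairs a broken chromosome by copying the intact sister: the break is recognised, its ends are trimmed to single strands, Brca1 and Brca2 help the strands to find and invade the sister, and the joined molecules are later resolved. The Fanconi pathway acts when the strands are crosslinked, and its core complex attaches ubiquitin to Fancd2 and Fanci before nucleases unhook the lesion. Both work mainly in S and G2 phase, and osteosarcoma is a tumour known for heavily rearranged chromosomes.

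The deposited RNA-seq counts cover 18 primary mouse osteosarcomas (strain background C57BL/6J and 129S/SvJae, mixed) and cell line 14, which was established from a primary tumour. The reference genotype is p53+/-, with 1 Trp53 allele lost (p53 het, n = 4). The mutant genotypes pair a wild-type allele with a missense allele and are p53R172H/+ (R172H, n = 6), p53R245W/+ (R245W, n = 3) and p53R270H/+ (R270H, n = 5). The line is labelled p53R245/O with loss of heterozygosity, and it gave 1 control library and 1 library after p53 siRNA. Whether the wild-type allele was retained in each tumour is not stated, nor are age and sex, and the line is a single culture. The groups allow each mutant to be set against the loss of an allele and against the other mutants.

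Library totals ran from 20.1 to 29.2 megacounts in the tumours and were 64.1 and 73.4 megacounts in the line, and levels are given as CPM, counts divided by the library total in megacounts. Trp53 itself was at 20.2 ± 5.75 CPM (SD, n = 4) in p53 het, 50.6 ± 13.5 in R172H (n = 6), 64.5 ± 8.54 in R245W (n = 3) and 36.8 ± 11.9 in R270H tumours (n = 5). R172H exceeded p53 het by an exact two-sided permutation test (p = 0.00476, the smallest this design allows, adjusted p = 0.0286 over 6 comparisons). edgeR's adjusted p for that pair was 0.106. For R245W against p53 het the permutation test gave p = 0.0286, also the smallest possible there, and adjusted p = 0.0536. edgeR's adjusted p was 0.0744 for that pair and 0.0326 for any difference among the 4 genotypes. Summed osteoblast markers ran from 34235 to 135500 CPM in the tumours and were at 8218 CPM in the control library of the line, where the bone matrix genes Ibsp and Dmp1 had 9 and 2 counts. The titles of p53 het libraries 1 and 2 and of all R172H and R245W libraries carry a serial number and the others do not. Kind of title therefore cannot be told apart from genotype in comparisons of R270H with R172H or R245W, except through p53 het. Every tumour is bulk tissue, so fewer cells of a type and less RNA per cell cannot be told apart.

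The 34 genes were transcribed at low to moderate levels in every tumour. Per kilobase of the longest coding transcript, the median level over 18 tumours was highest for Nbn, which with Mre11a and Rad50 forms the complex that first binds a break, at 13.6 CPM per kb. Rbbp8, which encodes CtIP, the partner that starts end resection, was next at 10.7 CPM per kb, and Rad52, which anneals single strands, followed at 9.37 CPM per kb. The lowest were Rad51c, which acts in a complex with Xrcc3, at 1.39 CPM per kb, and Rad51b, at 1.31 CPM per kb. Brca1, which with Bard1 forms a ubiquitin ligase at breaks, lay at 5.14 CPM per kb, above Bard1 at 1.81 and Brca2, a mediator of strand invasion, at 2.35 CPM per kb. This order depends on the length chosen. All exons together span 12521 bases in Rbbp8 and 5752 in Rad52, where the longest coding transcripts have 3523 and 1693. For Nbn both lengths are 2533 bases.

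Spread between tumours of a genotype was wide and differed by gene. The SD of log2 CPM within genotypes ran from 0.162 for Rad52 to 0.624 for Fanca, with a median of 0.407 over the 34 genes and 0.506 over all genes tested. Fanca, a subunit of the Fanconi core complex, ran from 4.56 CPM in R270H library 3 to 32.5 CPM in R270H library 4, a 7.13-fold range. Nbn ran only from 24 to 40.5 CPM. The same few libraries marked the ends of many genes: R270H library 3 was the lowest tumour for 11 of the 34 genes, against 11.5% of all genes tested, and R172H library 6 and p53 het library 2 for 8 each, against 5.17% and 13.4% of all genes. R270H library 4 was the highest for 10 of the 34, against 6.33% of all genes. These ranks use CPM without edgeR's TMM scaling factors, which ran from 0.854 to 1.114. The factors were 0.885 for R270H library 3, 0.901 for R172H library 6 and 0.854 for p53 het library 2. Their part in the ranks was not tested.

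**Figure D1:**
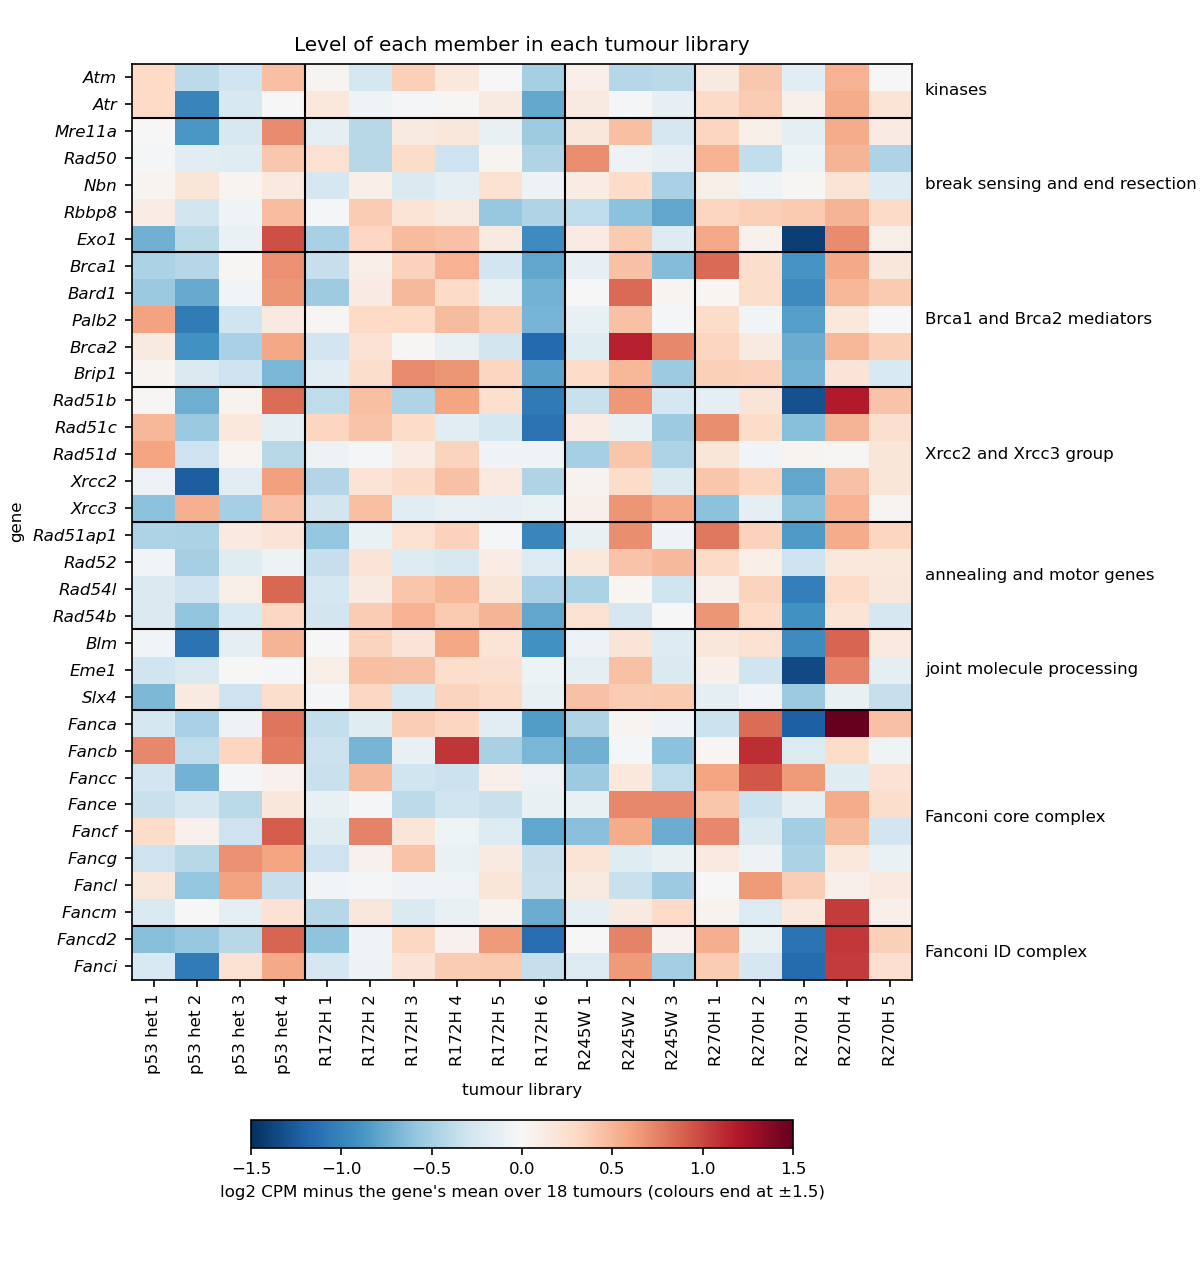
Heat map of the 34 genes (vertical, by role) in 18 tumour libraries (horizontal, by genotype), coloured by log2 CPM minus the gene's mean over the tumours. R270H library 3 and R172H library 6 are pale to dark blue across most of the Brca genes and the Xrcc2 and Xrcc3 group, while p53 het library 4 and R270H library 4 are mostly red.

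Between genotypes, 1 of the 34 genes passed in any pair. Genes were tested with edgeR's quasi-likelihood test over 20616 genes, and a call needs a Benjamini-Hochberg adjusted p under 0.05. No member passed in R172H against p53 het, where 0.0776% of all genes did, in R245W against p53 het (0.0728%), in R270H against p53 het (0%), or in R245W against R172H (0.155%). In R270H against R172H no member passed although 5.28% of all genes did. In R245W against R270H 1 member, Rbbp8, passed as lower, where 1.24% of all genes passed in either direction and 0.48% as lower. The test for any difference among the 4 genotypes also passed 1 member, again Rbbp8, beside 2.86% of all genes. At an unadjusted p under 0.05 the counts were 0, 5, 1, 4, 5 and 3 members in those 6 pairs in turn and 6 for any difference, against 12.3%, 12.5%, 11.5%, 10.8%, 23.2%, 18.4% and 22.1% of all genes.

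In R172H against p53 het the members' median was -0.16, beside -0.02 for all genes, with 8 of 34 above 0 against 48.3% of all genes. With kind of title as a covariate that median turned to 0.055, with 18 above 0. In R270H against R172H it was 0.21, beside -0.02 for all genes, with 26 of 34 above 0 against 48.9%. It was 0.056 with kind of title as a covariate, with 19 above 0, and 0.079 without R270H library 4, with 22 above 0. In R245W against p53 het the median was 0.04, with 20 above 0 against 47.3%, and in R270H against p53 het 0.13, with 22 above 0 against 48.7%. With kind of title as a covariate these were 0.169 and -0.055. It was 0.05 in R245W against R172H, with 21 above 0 against 49.7%, and -0.07 in R245W against R270H, with 13 above 0 against 48.5%. The last was 0.258 with that covariate, while the one before it stayed at 0.047. Without R245W library 2 the medians in R245W were -0.142 against p53 het and -0.092 against R172H, without R245W library 3 that against R270H was 0.064. Without R270H library 4 that last median was 0.062 and that of R270H against p53 het -0.03, and without p53 het library 4 that of R172H against p53 het was -0.023. The comparisons share tumours, so these medians are not independent of each other. By CPM, which leave out the scaling factors of the fit, libraries of the 2 groups were fully apart for no member in 3 pairs. These were R172H against p53 het, R270H against p53 het and R270H against R172H, with 2.15%, 3.5% and 6.72% of all genes apart.

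**Figure D2:**
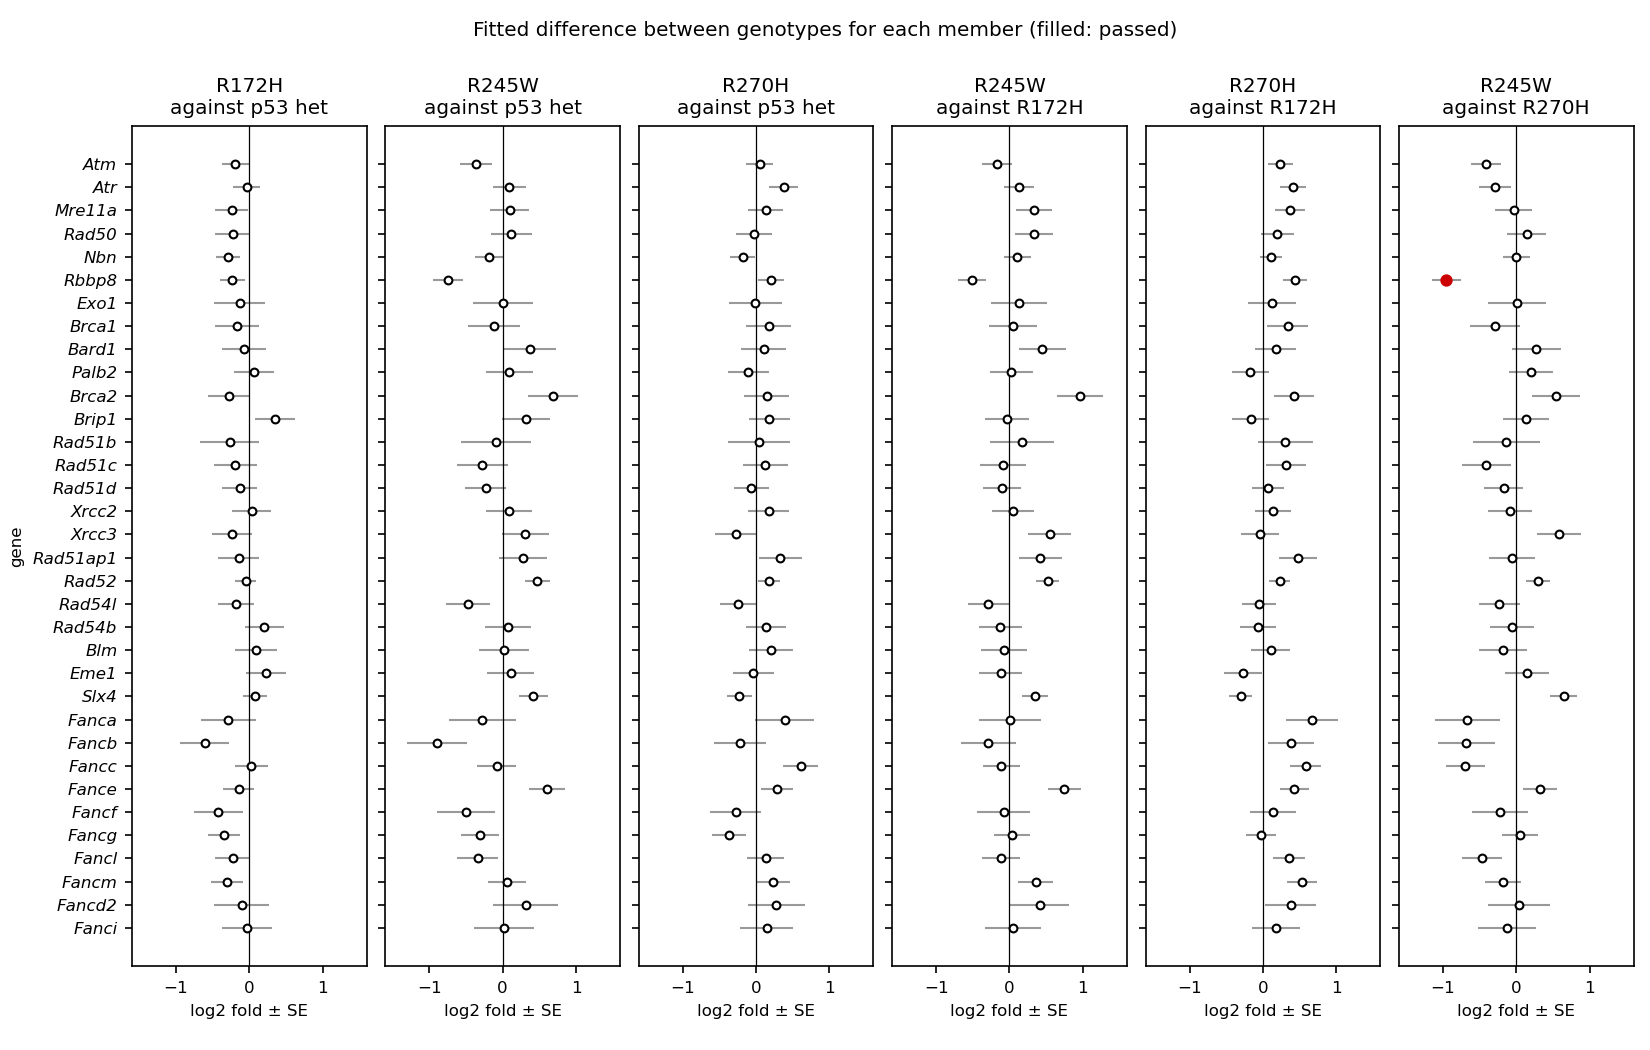
Fitted log2 fold with its SE for each of the 34 genes in the 6 pairs of genotypes, with a filled point where the adjusted p was under 0.05. Rbbp8 in R245W against R270H is the only filled point, and the folds run from -0.95 for that gene to 0.96 for Brca2 in R245W against R172H.

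Rbbp8 was low in the R245W tumours. It stood at 26.6, 22.6 and 20.2 CPM in the 3 R245W libraries and at 43.2, 44.5, 45.5, 49.6 and 42.3 CPM in the 5 R270H libraries, so the groups did not overlap. In p53 het it was at 37.6, 28.7, 33.2 and 47.7 CPM, all above R245W, and in R172H it ran from 23.3 to 45 CPM with a median of 36.1, which overlapped R245W. The fitted log2 fold of R245W against R270H was -0.95 ± 0.20 (SE, edgeR adjusted p = 0.0299), and R245W libraries all lay below R270H libraries in 7.5% of all genes. Against p53 het the fold was -0.74 ± 0.21 (edgeR adjusted p = 0.201) and against R172H -0.51 ± 0.19 (edgeR adjusted p = 0.347), neither of which passed. R245W lay fully below p53 het in 2.9% of all genes and fully below R172H in 3.22%, a pair in which no member did.

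This call was close to its threshold. It was lost without R245W library 1, 2 or 3 (edgeR adjusted p = 0.0669, 0.0711 and 0.138), without R270H library 1, 2 or 3 (0.0535, 0.0509 and 0.0729), and without the filter on low counts (0.0647), and the fold ran from -1.05 to -0.85 when each library was left out in turn. The call for any difference among genotypes held in 3 of 18 such refits, those without p53 het library 1, p53 het library 2 or R172H library 5. With kind of title as a covariate the fold was -0.82 and edgeR's adjusted p 0.471. In the same pair no marker of 11 cell types passed, though several lists lay mostly below 0: all 7 neutrophil, all 7 B and plasma cell, all 6 adipocyte, 9 of 10 T and NK cell and 9 of 10 skeletal muscle markers tested had folds below 0. The adipocyte list had a median fold of -1.85, and its sums ran from 37.4 to 57.5 CPM in R245W and from 48.1 to 141.6 CPM in R270H. Summed T and NK markers ran from 1.59 to 20.1 CPM in R245W and from 6.07 to 43.4 CPM in R270H, and neutrophil markers from 5.78 to 192 and from 14.8 to 1239 CPM. Their part in the Rbbp8 result was not tested.

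Slx4, the scaffold that holds nucleases for unhooking crosslinks and cutting joined molecules, went the other way without passing. It was at 59.8, 57.3 and 57.7 CPM in R245W, above every other tumour. In R270H it was at 40.0, 42.9, 30.1, 40.7 and 34.8 CPM, in p53 het at 27.6, 48.3, 35.5 and 53 CPM, and in R172H it ran from 37.5 to 55.5 CPM with a median of 48.8. The log2 fold against R270H was 0.65 ± 0.18 (edgeR adjusted p = 0.0814), against p53 het 0.42 ± 0.19 (0.384) and against R172H 0.35 ± 0.18 (0.501). DESeq2 and limma voom both called it against R270H (adjusted p = 0.0203 and 0.031), beside 1194 and 1047 of all 20616 genes. When p53 het library 1 was left out, edgeR called it too (adjusted p = 0.0431). With kind of title as a covariate edgeR called 8 genes in R245W against R270H, with no member among them. Groups that did not overlap, with R245W higher, made up 5.44% of all genes against R270H, 6.21% against p53 het and 2.02% against R172H.

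Rad52 also stood high in R245W. Its 3 libraries were at 17.3, 20.9 and 21.7 CPM, above the p53 het libraries at 15.1, 11, 13.6 and 14.7 CPM, while R172H ran from 12.2 to 17.6 CPM with a median of 13.4. The log2 fold was 0.47 ± 0.17 against p53 het (edgeR adjusted p = 0.286) and 0.52 ± 0.16 against R172H (0.235). DESeq2 called the second (adjusted p = 0.0269), beside 348 of all 20616 genes in that pair. R270H ran from 12.5 to 18.9 CPM with a median of 17.2, which overlapped R245W. The log2 fold of R245W against R270H was 0.29 ± 0.17 (edgeR adjusted p = 0.363). R245W lay fully above p53 het in 6.21% of all genes.

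Fance and Brca2 also had their highest mean CPM in R245W, with more scatter. Fance, a core complex subunit that contacts Fancd2, was at 15.2, 26.9 and 27 CPM in R245W, and R172H ran from 12.5 to 16 CPM with a median of 14.2 (log2 fold 0.75 ± 0.22, edgeR adjusted p = 0.228). Brca2 was at 21.1, 53.9 and 39.6 CPM in R245W, and R172H ran from 10.7 to 27.9 CPM with a median of 21.0 (0.96 ± 0.31, edgeR adjusted p = 0.276). The Brca2 fold was 0.598 without R245W library 2 and 0.593 with limma voom. In both genes R245W library 1 lay inside the range of R172H and the other 2 R245W libraries lay above it. Xrcc3, which pairs with Rad51c, was at 11, 16.4 and 15.4 CPM in R245W and at 6.76, 9.39, 6.65, 14.9 and 10.7 CPM in R270H (log2 fold 0.59 ± 0.31, edgeR adjusted p = 0.320, and 0.366 with kind of title as a covariate).

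**Figure D3:**
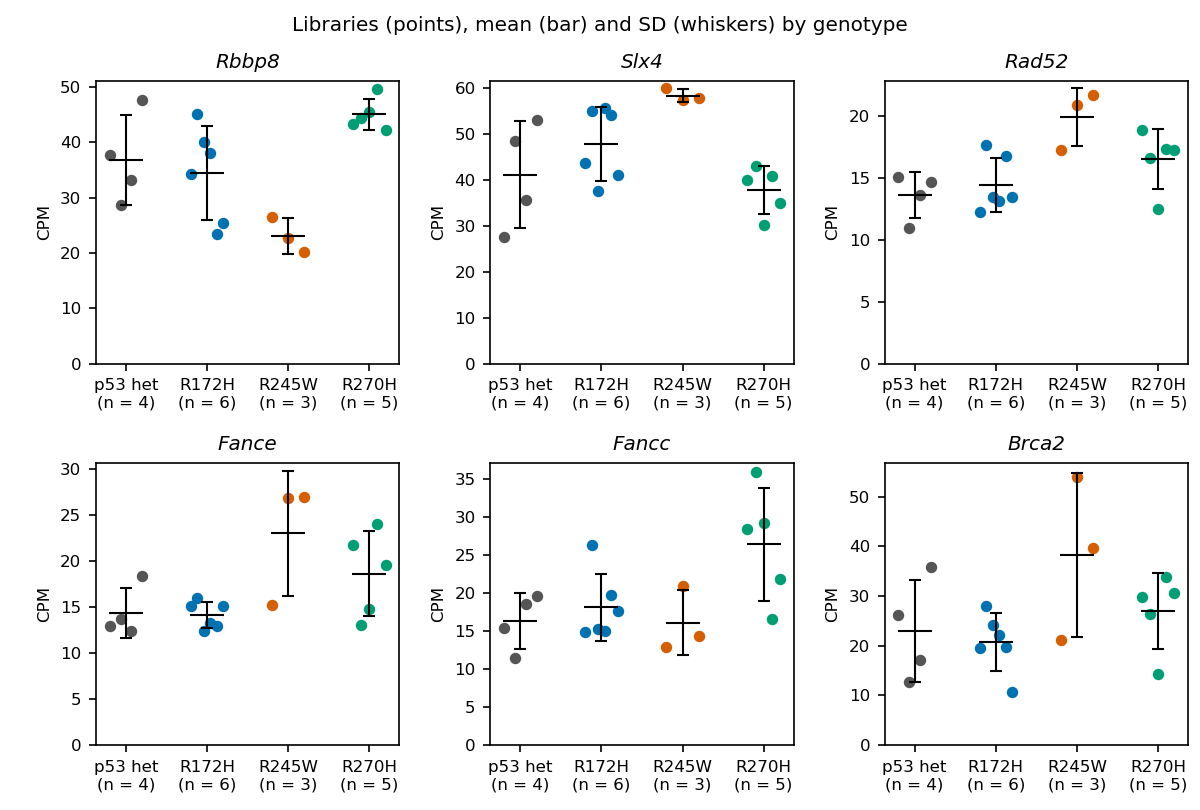
CPM of 6 genes in each tumour library (points) by genotype, with the mean (bar) and SD (whiskers). R245W is lowest for Rbbp8 and its 3 libraries lie above all others for Slx4, while the groups overlap in Fance, Fancc and Brca2.

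Of the 8 Fanconi core genes none passed in R270H against R172H, and 7 had a log2 fold above 0 in that pair, with a median of 0.41. Fancc, another core subunit, was at 28.4, 35.9, 29.2, 16.6 and 21.9 CPM in R270H, and R172H ran from 14.9 to 26.3 CPM with a median of 16.4. Its fold was 0.58 ± 0.21 (edgeR adjusted p = 0.110), and with kind of title as a covariate the edgeR fold was 0.225. Limma voom called Fancc (adjusted p = 0.0331), beside 2294 of all 20616 genes in that pair.

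Fancm, the translocase that anchors the core complex to DNA, had a fold of 0.54 ± 0.20 (edgeR adjusted p = 0.123). Its R270H libraries were at 20.5, 17.0, 22, 40.7 and 20.8 CPM, so library 4 alone lay above the R172H maximum of 22.1 CPM. Fanca had a fold of 0.68 ± 0.36 (edgeR adjusted p = 0.267), with R270H libraries at 8.56, 19.1, 4.56, 32.5 and 14.5 CPM on both sides of the R172H range of 5.98 to 13.8 CPM. Without R270H library 4 the folds of Fancm and Fanca were 0.277 and 0.222, and with kind of title as a covariate that of Fanca was 0.0431.

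Fancb, the X-linked core subunit, had its lowest mean in R245W, with libraries at 7.09, 11.5 and 7.60 CPM, and in p53 het it was at 19.2, 8.91, 14.5 and 19.8 CPM (log2 fold -0.90 ± 0.41, edgeR adjusted p = 0.377). The ranges overlapped through p53 het library 2. In R270H against R172H, some markers of blood cells passed. The neutrophil genes S100a8, S100a9 and Ltf and the erythroid genes Klf1 and Slc4a1 were called higher, and the macrophage gene Cd68 lower. All 7 neutrophil and 8 erythroid markers tested had folds above 0, while the 8 macrophage markers had 4 above and 4 below. R270H library 5 had the highest erythroid and neutrophil sums, 1982 and 1239 CPM. The next R270H libraries were at 274 and 157 CPM, and R172H reached 504 and 43.8 CPM. Their part in the values of the Fanconi genes was not tested.

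The kinases Atm, which responds to double-strand breaks, and Atr, which responds to single-stranded DNA, did not pass either. Atr was at 75.9, 81.2, 65.6, 91.6 and 71.6 CPM in R270H, and R172H ran from 36.5 to 69.6 CPM with a median of 62.0 (log2 fold 0.42 ± 0.18, edgeR adjusted p = 0.164). The ranges of CPM overlapped only through R270H library 3. CPM leave out the TMM scaling factors that enter the fold. These were 0.885 for that library and 1.004 for R172H library 1, the highest of R172H. Overlap on the scaled values was not examined. Atm was at 80.5, 57.0 and 57.6 CPM in R245W and at 83.9, 100.9, 68.2, 109.7 and 76.7 CPM in R270H, groups that overlapped through R245W library 1 (-0.41 ± 0.21, edgeR adjusted p = 0.303).

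The other 22 genes, among them Rad51b, Rad51c, Rad51d and Xrcc2 and the motor proteins Rad54l and Rad54b that remodel joined strands on chromatin, had no passing pair. Reads of some genes could not be assigned with certainty, because how the counting treated strands was not given in the sources used here. Exonic bases shared with another gene came to 35.9% for Rad54b (with Fsbp), 18.6% for Fancc, 16% for Fanci (with Polg on the other strand), 15.4% for Rad54l (with Lrrc41), 15% for Fancf and 13.7% for Fancl. The share was 10.7% for Eme1 and 10.5% for Fanca (with Zfp276 on the other strand), and lower for the rest. Fsbp lies on the same strand as Rad54b, so a strand setting would not separate those reads. How many reads came from shared bases was not examined. Levels and differences of those genes are therefore uncertain, by an amount that the shares of bases do not give.

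Levels of several members went with proliferation from tumour to tumour. A proliferation score was the mean centred log2 CPM of 30 genes of mitosis and DNA replication such as Mki67, Top2a, Ccnb1 and Mcm2, none of them a member, scaled to SD units (1 SD is 0.445 in log2). It ran from -1.49 to 1.68 in p53 het, -1.0 to 0.78 in R172H, -0.77 to 1.75 in R245W and -1.48 to 1.28 in R270H, so all 4 genotypes overlapped (exact two-sided permutation p = 0.607 to 1 over 6 pairs, each adjusted p = 1). The slope of each gene on the score was fitted with a mean per genotype, so it compares tumours of the same genotype.

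Of the 34 genes, 7 passed with a higher level at a higher score and none with a lower level, while 1.92% of all genes passed in either direction, 1.48% as higher and 0.437% as lower. The 7 were Brca1, Bard1, Exo1, Fancd2, Fanci, Rad51ap1 and Rad54l. In all, 32 of 34 slopes were above 0, against 47.9% of all genes, and their median was 0.15 log2 per SD, beside -0.01 for all genes. At an unadjusted p under 0.05, 15 members were higher, against 8.86% of all genes. Since the score and the members were measured in the same libraries, and the members were chosen with earlier results known, these counts describe the tumours.

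Brca1 had the smallest p. It ran from 17.6 to 58.3 CPM over the 18 tumours with a median of 33.8. In the 3 libraries of lowest score, p53 het 1, R270H 3 and R172H 6, it was at 23.3, 17.6 and 19.0 CPM, and in the 3 of highest score, R245W 2, p53 het 4 and R270H 4, at 44.1, 52.3 and 48.0 CPM. Its slope was 0.41 ± 0.06 log2 per SD (SE, edgeR adjusted p = 0.00168). Bard1, its partner, was at 6.82, 5.16 and 6.11 CPM in the low-score libraries and at 18, 15.8 and 14.1 CPM in the high-score ones, and its slope was 0.37 ± 0.07 (edgeR adjusted p = 0.0116).

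Exo1, the exonuclease that extends resection, was at 8.79, 5.46 and 7.54 CPM in the same low-score libraries and at 19.0, 28.2 and 23.6 CPM in the high-score ones, with a slope of 0.48 ± 0.07 (edgeR adjusted p = 0.00280). Fancd2, which carries the ubiquitin mark of the Fanconi pathway, was at 8.83, 6.39 and 6.24 CPM against 23.1, 25.1 and 28.7 CPM, with the steepest slope, 0.49 ± 0.08 (edgeR adjusted p = 0.00567). Fanci, its partner in the clamp, was at 7.85, 4.11 and 7.21 CPM against 14.3, 13.6 and 19.0 CPM, with a slope of 0.42 ± 0.09 (edgeR adjusted p = 0.0201). The high-score libraries lay above the low-score ones in these 3 genes, which repeats their choice by slope.

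Rad51ap1, which binds DNA and promotes strand pairing, was at 9.27, 7.06 and 6.49 CPM in the low-score libraries and at 20.7, 14.5 and 18.8 CPM in the high-score ones (0.34 ± 0.07, edgeR adjusted p = 0.0218). Rad54l was at 9.66, 5.49 and 7.97 CPM against 11.4, 20.3 and 13.6 CPM (0.29 ± 0.06, edgeR adjusted p = 0.0321). Rad51b and Fanca had slopes of similar size that did not pass, 0.42 ± 0.12 (edgeR adjusted p = 0.0799) and 0.38 ± 0.12 (0.116). By role, the 7 calls fell on 2 of 2 genes of the Fanconi ID complex, 2 of 5 Brca mediators, 2 of 4 annealing and motor genes and 1 of 5 break sensing and resection genes, and on none of the 8 core complex genes, 5 genes of the Xrcc2 and Xrcc3 group, 3 joint molecule genes or 2 kinases. DESeq2 called 7 more, among them Fanca and Fancf of the core complex, Rad51b and Xrcc2, and the joint molecule genes Blm and Eme1, and also Mre11a. It called 1269 of all genes on the score, against 395 in edgeR. The difference between roles was not tested.

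Members with the lowest slopes were close to 0, apart from Fancl. The slope was 0.015 ± 0.06 for Rad52 and 0.017 ± 0.06 for Nbn, and it was 0.013 ± 0.07 for Atr. It was 0.00013 ± 0.09 for Rad51d, -0.04 ± 0.09 for Fancc and -0.14 ± 0.09 for Fancl, the ubiquitin ligase of the core complex, and none of the 6 passed. The sign of the first 5 of these changed in some refits.

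**Figure D4:**
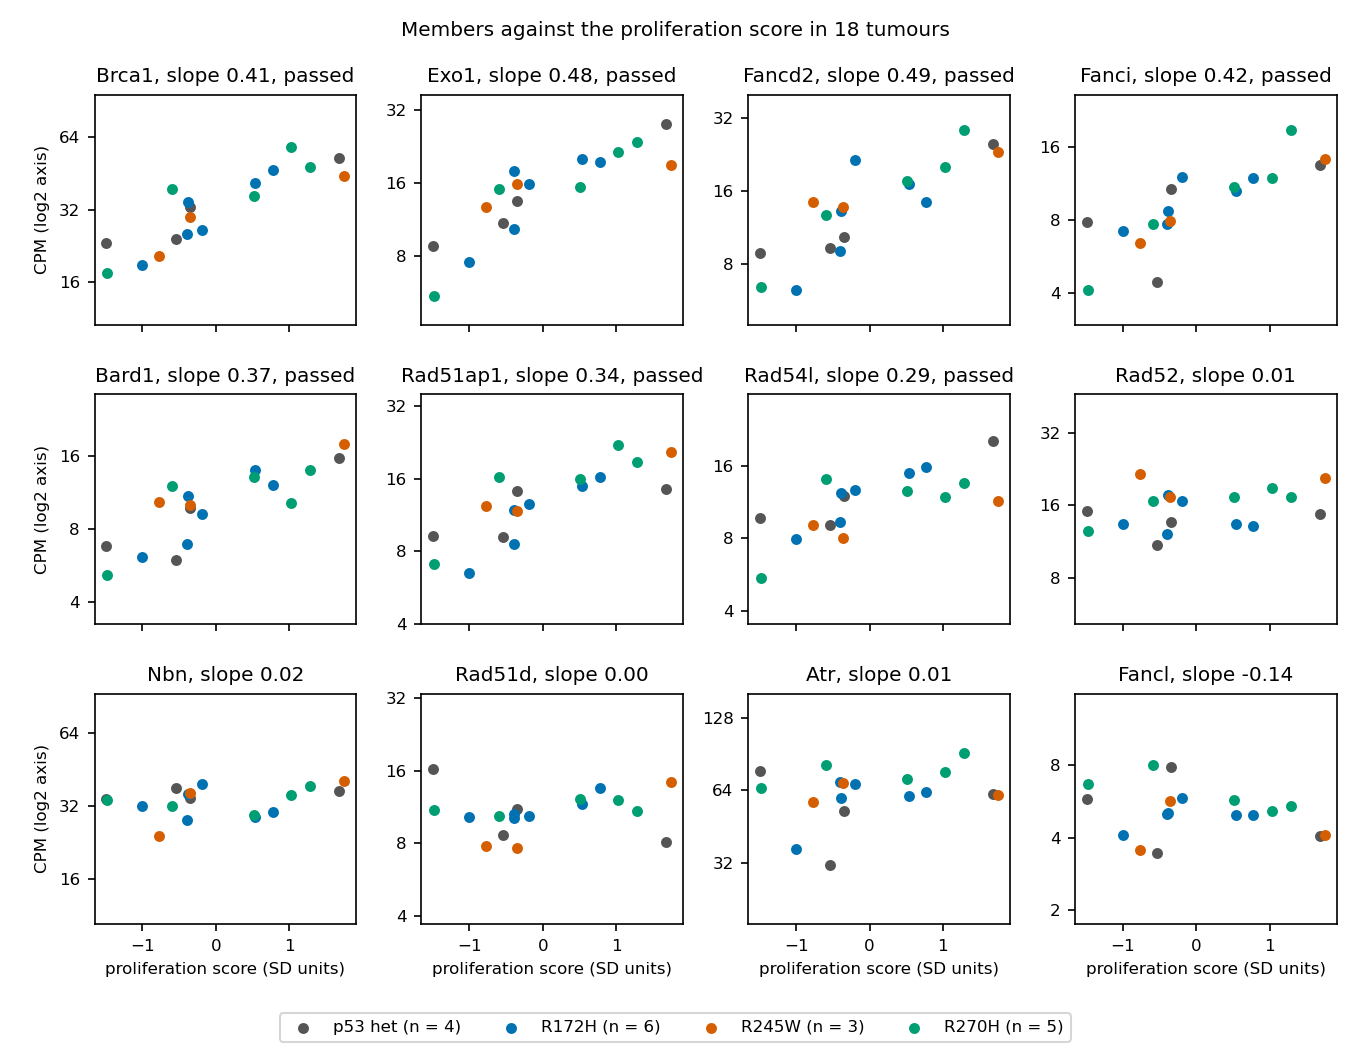
CPM (log2 axis) of 12 genes against the proliferation score in SD units for 18 tumours coloured by genotype, with the fitted slope above each panel. The 7 genes that passed climb from the low-score libraries to the high-score ones, with the 4 genotypes mixed along the way, and Rad52, Nbn, Rad51d, Atr and Fancl show no such climb.

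The number of called genes depended on which tumours were in the fit. Without the 2 libraries farthest from the median score, R245W 2 and p53 het 4, 2 of the 34 genes passed, Brca1 with a slope of 0.48 (edgeR adjusted p = 0.0368) and Exo1 with 0.60 (0.0309). The other 5 kept slopes of 0.30 to 0.57 and did not pass. With each library left out in turn, 4 to 9 genes passed. The 4 came without R245W library 2 and without R270H library 3, and Brca1, Exo1 and Fancd2 passed in each of the 18 refits. Bard1 did not pass without p53 het library 4 (edgeR adjusted p = 0.0652), Rad51ap1 without R245W library 2 or R270H library 3 (0.0823 and 0.0827), and Fanci without R245W library 2, R270H library 3 or R270H library 4 (0.0751, 0.0784 and 0.0514). Rad54l did not pass in 8 of the 18 refits, those without p53 het library 1 or 4, R172H library 3 or 4, R245W library 1 or 2, or R270H library 3 or 4.

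Within either kind of title alone no member and no other gene passed. The slopes of the 7 were 0.27 to 0.45 among the libraries with a serial number and 0.28 to 0.62 among those without, and with kind of title as a covariate Brca1, Bard1, Exo1 and Fancd2 passed. Osteoblast markers went the other way with the score: 11 of 12 had slopes below 0 and 4 passed as lower, Bglap, Bglap2, Dmp1 and Col1a2, with slopes of -1.43, -1.36, -1.36 and -0.55. All 7 osteoclast and all 7 neutrophil markers tested also had slopes below 0 and all 6 adipocyte markers above 0, with none passing. Their part in the members' slopes was not tested.

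Promoter windows, 250 bases before to 50 after a gene's start from RefSeq on GRCm38.p6, were at hand for 26 of the 34 genes and are shown for genes with and without a slope on the score. They were searched on both strands for 4 forms of the E2F element, TTCGCGC, then TTGGCGC, then TTGCCGC and also TTCCCGC, which E2F factors of the S phase programme are known to bind. Capitals mark a match, and where a window matched on its other strand the capitals show the reverse complement. The first 5 windows belong to genes that passed on the score, and Rad52 and Atr were level with it. The windows are Brca1 at chr11:101551906-101552205 (minus strand), Bard1 at chr1:71102923-71103222 (minus), Fanci at chr7:79392088-79392387 (plus), Rad51ap1 at chr6:126939538-126939837 (minus), Rad54l at chr4:116123641-116123940 (minus), Rad52 at chr6:119902448-119902747 (plus) and Atr at chr9:95857347-95857646 (plus).
Brca1: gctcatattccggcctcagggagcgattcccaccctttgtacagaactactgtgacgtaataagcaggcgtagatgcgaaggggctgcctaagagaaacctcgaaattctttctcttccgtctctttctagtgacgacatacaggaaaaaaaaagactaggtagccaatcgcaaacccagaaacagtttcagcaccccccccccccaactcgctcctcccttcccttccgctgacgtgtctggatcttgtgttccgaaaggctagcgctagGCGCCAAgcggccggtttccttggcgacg
Bard1: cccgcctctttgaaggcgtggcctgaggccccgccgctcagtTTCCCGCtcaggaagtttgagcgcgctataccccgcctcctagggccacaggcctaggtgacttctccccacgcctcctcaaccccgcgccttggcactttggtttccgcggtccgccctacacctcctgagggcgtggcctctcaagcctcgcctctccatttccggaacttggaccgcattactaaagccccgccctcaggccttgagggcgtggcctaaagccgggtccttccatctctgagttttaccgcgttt
Fanci: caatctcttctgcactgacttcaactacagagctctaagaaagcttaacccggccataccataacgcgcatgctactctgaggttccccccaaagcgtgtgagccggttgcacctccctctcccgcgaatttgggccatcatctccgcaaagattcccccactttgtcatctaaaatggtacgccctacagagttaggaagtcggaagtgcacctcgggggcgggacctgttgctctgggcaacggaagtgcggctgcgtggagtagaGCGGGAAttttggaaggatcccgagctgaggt
Rad51ap1: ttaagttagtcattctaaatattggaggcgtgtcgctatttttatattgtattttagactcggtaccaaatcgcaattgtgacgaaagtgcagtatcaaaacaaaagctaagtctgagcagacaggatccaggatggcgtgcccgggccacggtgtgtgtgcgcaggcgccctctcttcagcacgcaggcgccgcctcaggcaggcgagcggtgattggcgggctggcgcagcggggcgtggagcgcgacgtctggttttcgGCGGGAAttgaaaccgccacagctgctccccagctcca
Rad54l: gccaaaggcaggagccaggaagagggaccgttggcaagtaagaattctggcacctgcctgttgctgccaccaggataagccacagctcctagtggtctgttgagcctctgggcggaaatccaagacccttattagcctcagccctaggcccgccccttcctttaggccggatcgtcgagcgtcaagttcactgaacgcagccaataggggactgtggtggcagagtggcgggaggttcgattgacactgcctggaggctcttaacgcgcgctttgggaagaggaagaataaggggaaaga
Rad52: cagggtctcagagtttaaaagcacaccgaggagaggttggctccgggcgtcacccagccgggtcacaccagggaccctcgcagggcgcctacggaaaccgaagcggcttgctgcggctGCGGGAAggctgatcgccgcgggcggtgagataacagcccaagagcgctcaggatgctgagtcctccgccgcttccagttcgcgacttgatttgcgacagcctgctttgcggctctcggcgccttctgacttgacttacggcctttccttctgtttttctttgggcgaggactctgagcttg
Atr: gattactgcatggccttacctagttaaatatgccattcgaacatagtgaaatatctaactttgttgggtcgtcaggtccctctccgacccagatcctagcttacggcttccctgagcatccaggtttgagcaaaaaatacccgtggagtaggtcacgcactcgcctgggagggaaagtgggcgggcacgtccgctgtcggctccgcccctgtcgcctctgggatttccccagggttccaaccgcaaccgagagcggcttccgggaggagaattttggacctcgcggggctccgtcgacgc

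An E2F form was found in 14 of the 26 genes with a window (53.8%), against 17.4% of the 12772 tested genes with a window. A gene with more than 1 window counted if any of them matched. The windows of Fanci, Fancc, Fancl and Slx4 and a window of Rad51c lay inside the gene as GENCODE bounds it. Of the 5 genes that passed on the score and had a window, 4 held a match, and so did 10 of the other 21. Brca1 matched TTGGCGC 21 bases after its start, Fanci matched TTCCCGC 18 bases after it and Rad51ap1 12 bases after it, while Bard1 matched 208 bases before its start. Rad54l, which passed, held none, and Rad52, which was level, held TTCCCGC 132 bases before its start. A match is a stretch of letters and not a measured binding site. The members' windows had a median GC content of 59.7%, beside 59.3% for the tested genes.

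Other motifs were closer to the background. CCAAT, read on both strands, was in windows of 17 of the 26 genes (65.4%, against 42.1% of tested genes). The CHR forms TTTGAA and TTCGAA were in those of 4 (15.4%, against 17.1%) and the NRF1 form GCATGCG in those of 3 (11.5%, against 6.34%). CCAAT can share bases with the E2F form TTGGCGC read on its other strand, as it did in Fancf.

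Of 44 other homologous recombination and Fanconi genes tested, 7 passed on the score, all higher, where 1.48% of all genes passed as higher, and the 3 of lowest p are given. H2afx, the histone marked at breaks, had a slope of 0.40 ± 0.07 (edgeR adjusted p = 0.00510), Fignl1, an ATPase that acts in recombination, 0.40 ± 0.07 (0.0101), and Polq, the polymerase of a backup joining route, 0.44 ± 0.09 (0.0129). None of the 3 passed without the 2 libraries farthest in score (edgeR adjusted p = 0.113, 0.138 and 0.298), and Fignl1 did not pass without R245W library 2 (0.0656) nor Polq without p53 het library 4 (0.107). Their median slope was 0.10, beside 0.15 for the 34 genes. Of 15 end joining genes, which rejoin breaks without a template, none passed and 6 were above 0, against 47.9% of all genes, with a median of -0.004. Polq, though it acts in a joining route, was counted among the 44 and not among these 15. The contrast between the 2 lists depends in part on that choice.

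Between genotypes, 2 of the 44 passed, both higher in R270H than in R172H, where 5.28% of all genes passed. They were Rpa3 and Rpa1, subunits of the protein that coats single-stranded DNA: Rpa3 had means of 17.6 and 7.61 CPM (log2 fold 1.24 ± 0.28, edgeR adjusted p = 0.0210) and Rpa1 70.5 and 48.5 CPM (0.57 ± 0.15, edgeR adjusted p = 0.0373). With kind of title as a covariate neither passed, and the Rpa3 fold turned to -0.0834 and that of Rpa1 was 0.589 (edgeR adjusted p = 0.971 and 0.598). Rpa3 did not pass without R270H library 1 (0.0545). Rpa1 did not pass in 10 of 18 refits that left out 1 library, those without any R172H library or without R270H library 1, 2, 4 or 5, where edgeR gave adjusted p of 0.0528 to 0.102. None of the 15 end joining genes passed in any pair. Among them Nhej1, which aligns ends for ligation, had the smallest p, with means of 5.66 CPM in R245W and 2.01 CPM in R172H (log2 fold 1.55 ± 0.38, edgeR adjusted p = 0.147).

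In cell line 14 the control library held more of many, though not all, of these transcripts than the tumours. It lay above all 18 tumours for 19 of the 34 genes and below all for none, against 18.7% and 26.9% of all genes tested in the tumours. The other 15 lay within the range of the tumours, among them Fancc at 12.5 CPM, against 11.5 to 35.9 CPM. Brca1 was at 96.3 CPM, against at most 58.3 CPM in a tumour, Exo1 at 65.0 against 28.2, Rad51ap1 at 48.1 against 22 and Bard1 at 37.8 against 18 CPM. Rbbp8, low in the R245W tumours at 20.2 to 26.6 CPM, was at 49.5 CPM in the line, which carries the p53R245 allele. The summed proliferation genes were at 5614 CPM in the control library and at 1113 to 3158 CPM in the tumours, and summed macrophage markers were at 17.0 CPM, against at least 825 CPM in a tumour. In these unscaled CPM, summed osteoblast markers were at 8218 CPM, against at least 34235 CPM in a tumour. Their part in the difference between line and tumours was not tested.

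After p53 siRNA, Trp53 went from 94.9 to 30.6 CPM, a log2 ratio of CPM plus 1 of -1.6. None of the 34 genes moved by 0.5 or more on that scale, against 0.716% of 13556 genes as higher and 1.64% as lower. Each library stands alone, so there is no test, and the ratios compare those libraries only. The log2 ratio was below 0 for 27 of 34 genes, beside 54.9% of all genes, with a median of -0.08, beside -0.02 for all genes, -0.085 for the end joining genes, -0.011 for the other pathway genes and 0.12 for the proliferation genes.

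Bard1, named after its value was seen as the farthest of the 34, went from 37.8 CPM (exact Poisson 95% interval 36.3 to 39.3) to 28.1 CPM (26.9 to 29.3), a log2 ratio of -0.41. Brca2 went from 32.7 to 27.6 CPM (-0.24), Rad51c from 10.8 to 8.94 CPM (-0.25) and Brca1 from 96.3 to 89.8 CPM (-0.10), while Fancf went from 5.60 to 6.63 CPM (0.21). The counting intervals, which cover counting error only, did not overlap for 11 of the 34 genes, all lower after siRNA, beside 24.6% of all genes with a lower and 18.2% with a higher siRNA library.

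**Figure D5:**
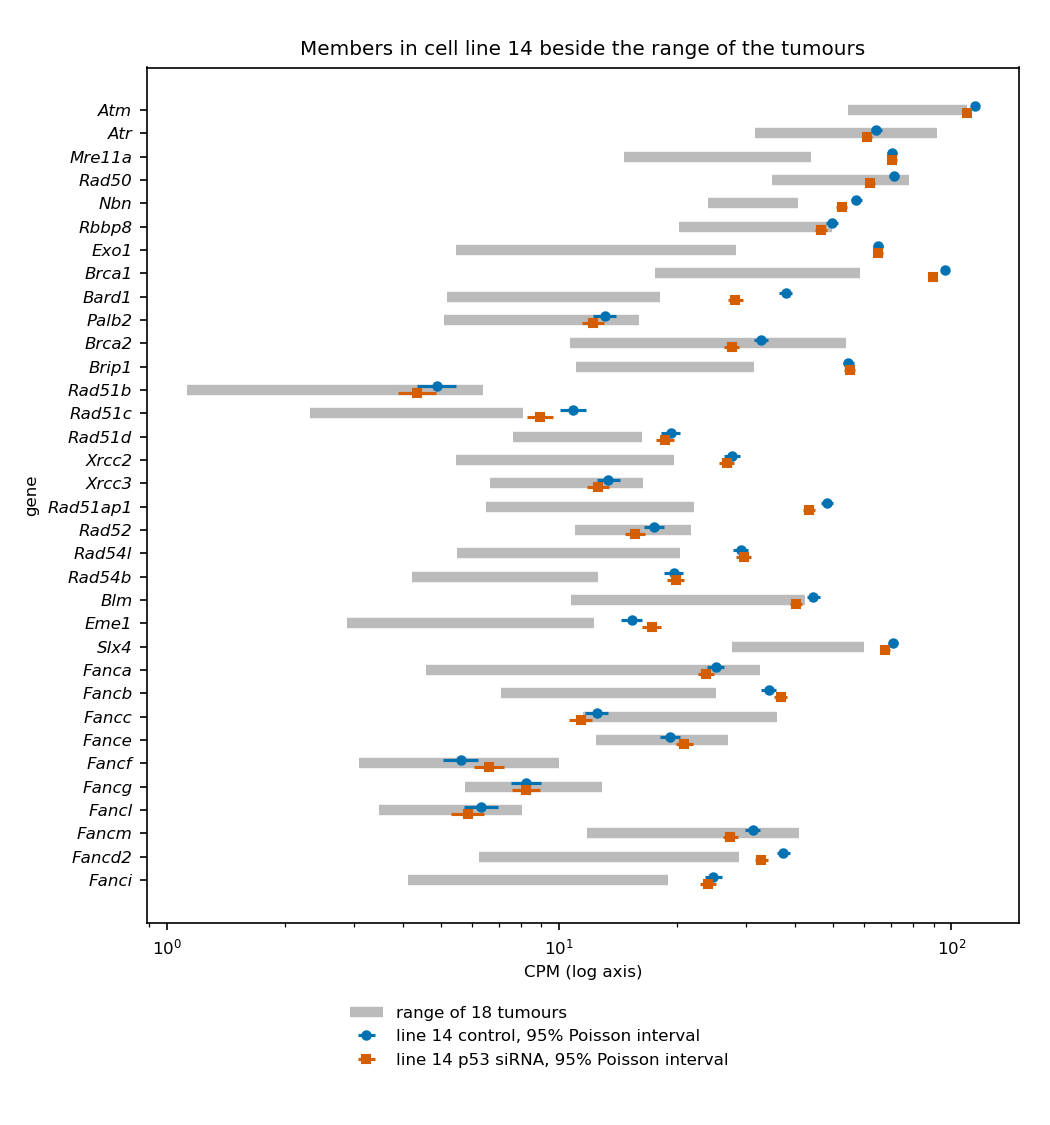
CPM (log axis) of the 34 genes in the control library (circles) and the p53 siRNA library (squares) of cell line 14, with exact Poisson 95% intervals, beside the range of 18 tumours (grey). Control and siRNA lie close together for nearly all genes, and for 19 genes the control lies to the right of the grey range.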

How the data were processed

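Total RNA of frozen tumours and of cell line 14 was sequenced, per the labels' protocols. Reads were checked with FastQC, aligned to GRCm38 with STAR 2.6.0b and compared with DESeq2, per the labels and the submitters' processing notes. The deposited table holds raw counts per gene for 20 libraries, with 0 columns left unused. The counting program, its annotation and its strand setting are not given in the sources used here.

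Genes passed filterByExpr by genotype (minimum count 10, minimum total 15), which left 20616. In R 4.3.3, edgeR 4.0.16 with TMM factors (0.854 to 1.114) fitted 1 mean per genotype (14 residual degrees of freedom) and tested 6 pairs, any difference and, with the score added, a slope. The p-values measure the spread between tumours, which the labels list as separate samples, and were adjusted over all genes by Benjamini-Hochberg. CPM use unscaled library totals. For the line, which has no replicate, ratios used CPM plus 1. The scripts were tested on simulated data.

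The members, lists and settings were chosen with earlier results of these data known. Named by rule were the members that passed between genotypes, then those of lowest p for any difference until 12 were named, and the 6 highest and 6 lowest slopes. Bard1, Rad51ap1 and Rad54l were named as passing on the score. Positions and lengths came from GENCODE annotation of GRCm38. DESeq2 1.42.0, its size factors, limma 3.58.1 voom with quality weights, no low-count filter, only the groups compared, kind of title, the score as covariate, other scores and leaving out each library were tried. Added after seeing the data were the slope with kind of title, within each kind, and without the 2 farthest libraries, and all refits of the named genes of the wider pathway. 1 gene of the wider pathway is not reported here.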

Additional observations from a re-analysis of the deposited data

Results flagged for a closer look

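A single library lay far from the others of its genotype in 8 of the 102 sets of member and genotype with 4 or more tumours, by Dixon's ratio at its 95% level. Chance alone marks about 1 set in 20 where values are normal and sets independent. Here the values are CPM without logs, and the sets share libraries. The share over all genes was not examined, so the 8 are listed for a closer look only. Atr, the kinase of single-stranded DNA, was low in R172H library 6, at 36.5 CPM, where the other 5 libraries were at 59.6 to 69.6. Xrcc3 was high in R172H library 2, at 14.3 CPM, against 8.55 to 9.69.

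R270H library 3, the R270H tumour of lowest proliferation score, was low for Xrcc2, at 7.47 CPM against 14.6 to 17.4, and for Rad54l, at 5.49 CPM against 11.8 to 14.1. Fancd2 was high in p53 het library 4, the p53 het tumour of highest score, at 25.1 CPM against 8.83 to 10.4. Fancm was high in R270H library 4, at 40.7 CPM against 17 to 22.

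Fancb was far from the rest in both R172H and R270H. It was at 24.5 CPM in R172H library 4, where the others were at 7.20 to 10.7, and at 25.1 CPM in R270H library 2, where the others were at 10.1 to 14.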

How the results depend on the processing

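No paired analysis was possible because the labels number no replicates across genotypes. Under DESeq2 the number of members called was 1 in R245W against p53 het (Rbbp8), beside 363 of all 20616 genes. It was 1 in R245W against R172H (Rad52), beside 348, and 2 in R245W against R270H (Rbbp8 and Slx4), beside 1194. It was 2 for any difference, beside 2475, and 14 on the score. The score fit also called 1269 of all genes under DESeq2, against 395 in edgeR. Any difference called 0 members with DESeq2's size factors, 0 without the low-count filter, 0 with limma voom and 0 with kind of title, and R245W against R270H called 0, 3 and 0 under the last 3. The 3 under limma voom stood beside 1047 of all genes. Limma voom called 1 in R270H against R172H, beside 2294 of all genes. With kind of title 4 members passed on the score. The median in R245W against R270H was then 0.26, in R172H against p53 het 0.055, in R245W against p53 het 0.169, in R270H against p53 het -0.055 and in R270H against R172H 0.056, and the Rpa3 fold in the last pair was -0.0834. Without the 2 libraries farthest in score 2 passed, and 0 passed in libraries with a serial number in the title alone or in those without. The cause was not tested, though the last 3 fits hold fewer libraries. Leaving out each library gave 0 to 2 members in R245W against R270H, 0 to 1 for any difference, 4 to 9 on the score and 0 in the other 5 pairs. The members' median then ran from -0.22 to -0.02 in R172H against p53 het, -0.14 to 0.14 in R245W against p53 het, -0.03 to 0.27 in R270H against p53 het, -0.09 to 0.22 in R245W against R172H, 0.08 to 0.30 in R270H against R172H and -0.26 to 0.06 in R245W against R270H. The flat slopes changed sign. Rad51d was at -0.00255 under DESeq2, -0.00125 with its size factors, -0.0143 with limma voom, -0.0238 with the mitosis genes alone, -0.0195 without genotype means, -0.0352 without the 2 farthest libraries and -0.0893 in titles with no serial number. In titles with a serial number Fancc was at 0.0494, Atr at -0.00894 and Rad52 at -0.0446, and Nbn was at -0.00612 in titles without and -0.0256 without the 2 farthest. Leaving out each library gave -0.13 to 0.10 for Rad51d, -0.039 to 0.052 for Nbn, -0.14 to 0.00717 for Fancc, -0.014 to 0.092 for Atr and -0.014 to 0.038 for Rad52. All members had counts of at least 30 in each tumour, and the parts of depth and of the few tumours per genotype in the SEs were not tested. A p that missed the threshold does not show that levels were equal.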
